A study of Bos taurus with 6 samples.

Results

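The genes described here build the cornified envelope, the cross-linked protein shell of squamous epithelial cells, or act in the squamous differentiation that produces it. They were given by symbol, with earlier results of these data known, and the most-counted row of each symbol was to be used: IVL, TGM1, PPL, EVPL, SFN and ZNF750, 6 of the 28200 rows of the count table. Each symbol stood on 1 row, so no row was picked by its counts. The cells were Holstein bovine primary mammary epithelial cells (BMECs), grown out of mammary tissue and released by enzyme, and their total RNA was sequenced. There were 3 KLF6 knockout libraries, from cells edited with CRISPR/Cas9, and 3 wild-type libraries. The labels give no other treatment, do not describe the control for editing, and do not tell whether replicates are independent cultures or edited clones. A p-value here thus reflects library-to-library spread alone, possibly technical.

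In stratified epithelia such as the epidermis, the envelope is assembled beneath the plasma membrane as cells leave the basal layer. Envoplakin (EVPL) and periplakin (PPL) form a scaffold at the membrane, involucrin (IVL) is deposited on it early, and transglutaminase 1 (TGM1) joins the proteins through glutamine and lysine side chains. ZNF750 is a transcription factor that in human keratinocytes acts downstream of p63 to turn on late differentiation genes, and SFN encodes stratifin, the epithelial 14-3-3 protein. Mammary ducts are not normally cornified, and squamous differentiation of mammary epithelium is known as a form of metaplasia.

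KLF6 itself, a zinc-finger transcription factor, read 224, 230 and 217 CPM in the knockout libraries, against 503, 496 and 558 CPM in the wild-type libraries. CPM are counts relative to the library size after TMM scaling, which sets libraries of different depth on 1 scale. The log2 fold change, here always knockout over wild type, was -1.21 ± 0.050 (SE, adjusted p = 2.25e-13). The labels call the knockout complete but do not give the edited position, so the RNA that remained, 43.2% of the wild-type level, does not test the edit. Libraries held 17512892 to 18724879 counts. Wild-type replicate 3 stood apart from the other 2 wild-type libraries, with 8.87 times the variance of pure counting against each, against 2.25 to 2.74 times for the remaining replicate pairs. Of 13390 genes tested with edgeR's quasi-likelihood test at a Benjamini-Hochberg adjusted p of 0.05, 37.1% rose and 37.6% fell, so a call by itself was common.

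Both envelope plakins, the involucrin gene and the transglutaminase gene fell in knockout libraries, the stratifin gene did not pass the test, and ZNF750 was nearly unread in both genotypes. Of the 6 genes, 5 had enough counts to be tested and 4 of them fell, against the 37.6% of all tested genes. EVPL, IVL and TGM1 fell more than 8-fold, as did 1.62% of all tested genes; none rose 8-fold, as 2.79% did. In all 5 the knockout libraries lay below the wild-type libraries without overlap. Over all tested genes the groups did not overlap for 76.2%, with knockout below for 38.3% and above for 37.9%. Only 34 of the 13390 genes had a lower log2 fold change than EVPL. In bulk RNA, fewer cells that express a gene and less RNA of it per cell cannot be told apart.

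**Figure D1:**
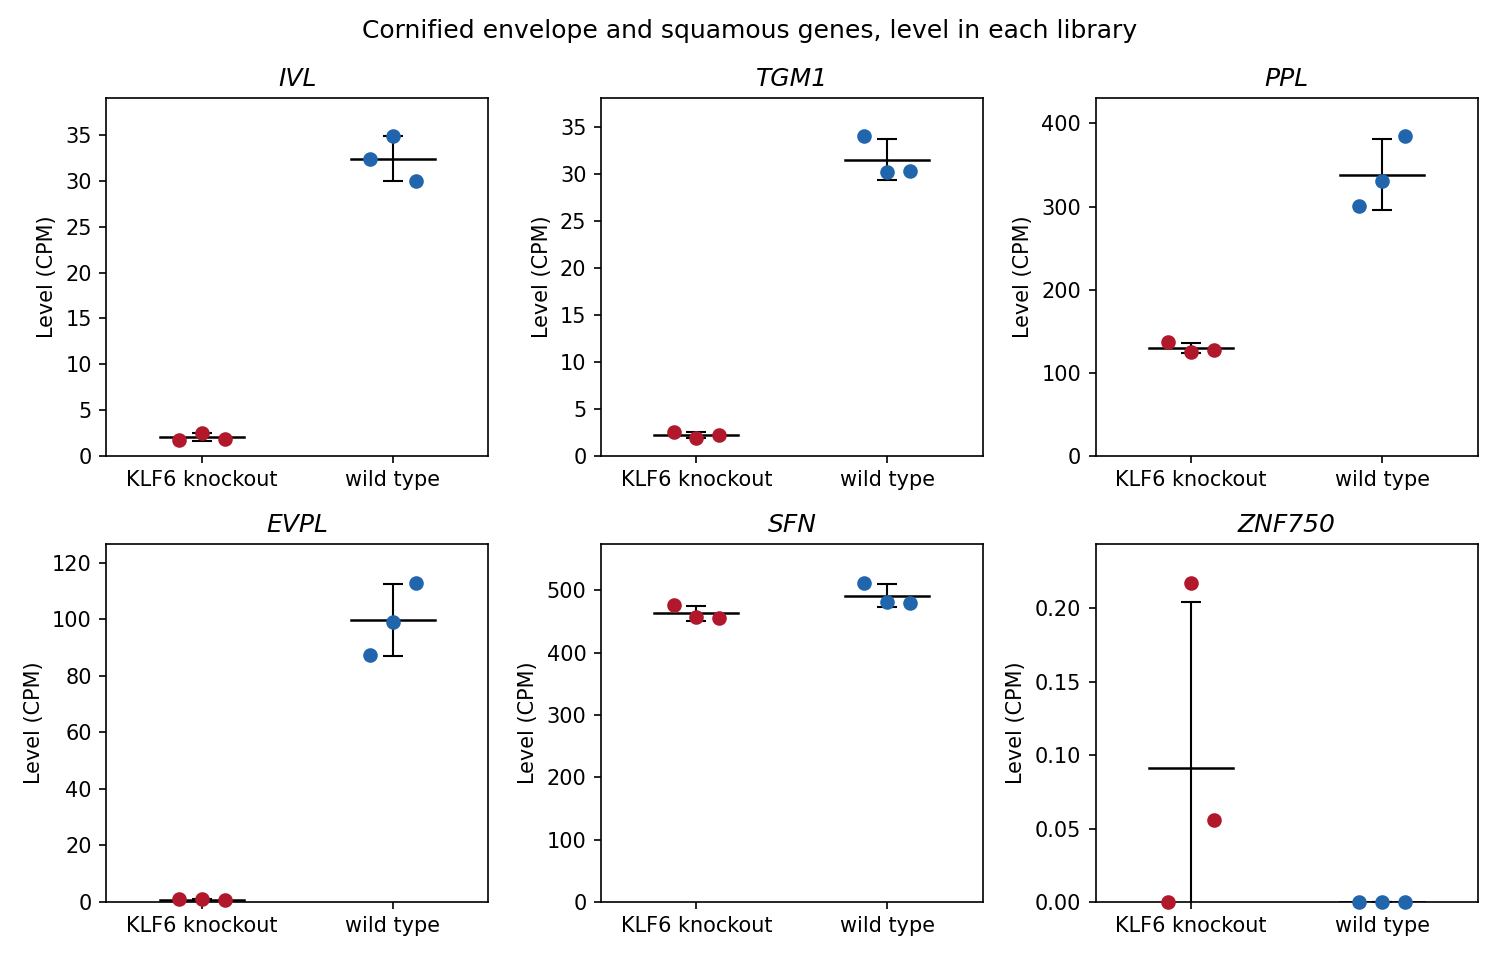
Level of each of the 6 genes in CPM (vertical axes, each starting at 0) in the 3 KLF6 knockout libraries (red) and the 3 wild-type libraries (blue). Points are libraries, long bars means and error bars SD; EVPL is close to 0 in knockout libraries while SFN differs little, and ZNF750 has 5 reads in all, with its lower error bar cut at 0.

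IVL (ENSBTAG00000017827) lies on chromosome 3, from 17840283 to 17841593 on the minus strand, and the count file marks it as a pseudogene. The sources used here do not name the genome build of these and the following coordinates. Its counts were 29, 46 and 33 in knockout libraries, against 574, 651 and 549 in wild-type libraries, which is 1.66, 2.50 and 1.84 CPM against 32.4, 34.9 and 30.0 CPM. Every knockout library was far below every wild-type library, and within a genotype the libraries were close. The mean was 2.00 ± 0.44 CPM in knockout cells and 32.4 ± 2.44 CPM in wild type (SD, n = 3 each). The log2 fold change was -4.01 ± 0.13 (SE, adjusted p = 6.69e-15), which left 6.17% of the wild-type level.

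TGM1 (ENSBTAG00000003920, chromosome 10, 20902051 to 20916712, plus strand) encodes the membrane-anchored enzyme that cross-links involucrin and the plakins in keratinocytes. It read 2.53, 1.90 and 2.17 CPM in knockout libraries, against 34.0, 30.2 and 30.3 CPM in wild-type libraries. The groups were again well apart, and the knockout level rested on 35 to 44 reads per library. TGM1 fell 14.3-fold (log2 fold change -3.84 ± 0.12, adjusted p = 4.47e-15). The enzyme gene and the gene of its substrate thus had nearly the same CPM in each genotype, a scale that leaves gene length out. Per kilobase IVL stood above TGM1 in both genotypes, at 1.58 against 0.80 in knockout and 25.55 against 11.38 in wild type.

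PPL (ENSBTAG00000002178, chromosome 25, 3948864 to 3996463, minus strand) read 137, 125 and 127 CPM in knockout libraries, against 300.3, 330 and 384.5 CPM in wild-type libraries. It fell 2.61-fold (log2 fold change -1.38 ± 0.08, adjusted p = 1.83e-08). Knockout libraries kept 38.3% of the wild-type level. All knockout libraries were lower, and the wild-type libraries varied more, with a coefficient of variation of 12.6% against 4.98% in knockout.

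EVPL (ENSBTAG00000010517, chromosome 19, 55626318 to 55644114, plus strand), the partner of PPL, changed most. Its counts were 16, 20 and 9 in knockout libraries, against 1549, 1849 and 2069 in wild-type libraries. This is 0.92, 1.09 and 0.50 CPM against 87.4, 99.1 and 113 CPM. The knockout libraries were all above the 0.163 to 0.172 CPM that 3 counts make in a library, so the gene was still read, at 0.837% of its wild-type level. The log2 fold change was -6.89 ± 0.16 (adjusted p = 2.69e-14), a 118-fold fall. EVPL passed the filter on low counts through its wild-type libraries.

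The pair of plakin genes therefore changed by very different amounts, which a ratio taken within each library shows independently of how libraries are scaled. EVPL reads per kilobase were 0.0063, 0.0082 and 0.0037 of PPL reads per kilobase in knockout libraries, against 0.274, 0.282 and 0.276 in wild-type libraries. The ratio was 45.7-fold lower in knockout, with groups far apart. An exact two-sided permutation test over the 6 libraries gave p = 0.1, the smallest that 3 against 3 allows, so the design cannot reach 0.05 for a single ratio. Within wild type the ratio had a coefficient of variation of 1.51%, although EVPL and PPL each varied by 12.8% and 12.6%. The plakin genes thus varied together between wild-type libraries.

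The same ratio for TGM1 over IVL was 0.696, 0.349 and 0.542 in knockout libraries, against 0.481, 0.397 and 0.463 in wild-type libraries. The groups overlapped (exact two-sided permutation p = 0.6), and the knockout values spread more widely, resting on 29 to 46 reads a gene and library. The difference of the mean log2 ratios was 0.19, and -0.035 without knockout replicate 1.

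**Figure D2:**
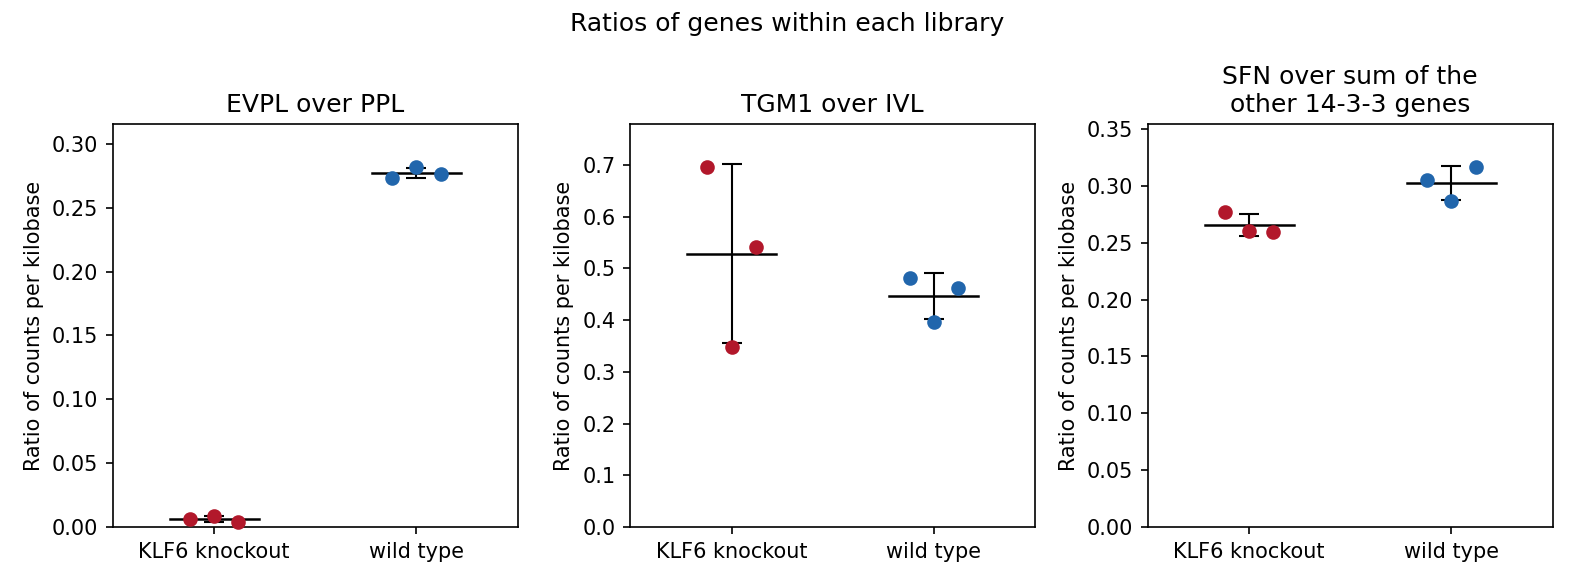
Ratio of counts per kilobase of 1 gene over another within each library, for EVPL over PPL, TGM1 over IVL, and SFN over the sum of the other 14-3-3 genes, in KLF6 knockout (red) and wild-type (blue) libraries. Points are libraries, long bars means and error bars SD (n = 3 each); the plakin ratio averages 0.0061 in knockout and 0.277 in wild type, while the TGM1 over IVL ratios overlap.

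SFN (ENSBTAG00000009223, chromosome 2, 126340193 to 126341536, minus strand) encodes a 14-3-3 protein that is a p53 target and holds cells in G2. It was by far the highest of the 6 genes, at 477, 458 and 455 CPM in knockout libraries, against 512, 481 and 480 CPM in wild-type libraries. The knockout libraries lay just below the wild-type ones without overlap, as they did for 38.3% of all tested genes. The difference did not pass the test, with a log2 fold change of -0.085 ± 0.044 (adjusted p = 0.0888, 95% interval -0.18 to 0.0075). This interval excludes a change as large as those of the other 4 tested genes. The call hung on the scaling and on 1 library: SFN was called lower with scaling by library size only (log2 fold change -0.13, adjusted p = 0.00857) and without wild-type replicate 3 (-0.10, adjusted p = 0.0181), and the adjusted p ran up to 0.338 without wild-type replicate 1.

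The other 14-3-3 genes, which bind phosphorylated partners in all cell types, moved by small amounts in both directions. YWHAH (log2 fold change 0.59), YWHAQ (0.30) and YWHAG (0.27) rose, YWHAZ (-0.44) and YWHAE (-0.35) fell, and YWHAB (0.11) did not pass the test. YWHAZ lies on chromosome 14, where the median log2 fold change of 301 tested genes was -0.82. Set against that median YWHAZ was higher in knockout (0.38), and YWHAE against the median of its own chromosome no longer passed the test (-0.092, adjusted p = 0.102). SFN per kilobase made 0.277, 0.260 and 0.260 of the sum of the other family members in knockout libraries, against 0.305, 0.286 and 0.316 in wild-type libraries. This share was lower in all knockout libraries, with an exact two-sided permutation p = 0.1, again the smallest possible.

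ZNF750 (ENSBTAG00000015406, chromosome 19, 49854334 to 49863765, plus strand) had 0, 4 and 1 reads in knockout libraries, against 0 reads in each wild-type library. The 5 knockout reads have a 95% Poisson interval of 1.62 to 11.7, and a count of 0 over the wild-type group allows up to 3 reads, or 0.0549 CPM. These limits cover counting error only. The gene was too low to be tested, and without the filter edgeR gave an adjusted p of 0.0818. It lies within the span of TBCD, a tubulin-folding gene on the other strand that read 69.6 ± 2.83 CPM in knockout cells and 62.45 ± 3.79 CPM in wild type. The sources used here do not name the strand setting of the counting, so reads of this pair cannot be told apart with certainty. The other 5 genes overlapped no row of the file.

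Levels of different genes were compared per kilobase of the gene length in the count file, as CPM per kilobase. In knockout libraries the order was SFN (345 ± 8.98), PPL (22.8 ± 1.14), IVL (1.58 ± 0.35), TGM1 (0.80 ± 0.11), EVPL (0.14 ± 0.05) and ZNF750 (0.024 ± 0.030). In wild-type libraries it was SFN (365.5 ± 13.6), PPL (59.5 ± 7.50), IVL (25.6 ± 1.92), EVPL (16.5 ± 2.12), TGM1 (11.4 ± 0.78) and ZNF750 (0), all as mean ± SD of 3 libraries. EVPL and TGM1 thus stood in opposite order in the genotypes, and in neither did the libraries of neighbouring tested genes overlap. In wild type EVPL exceeded 65.5% of tested genes on this scale, and in knockout 1.70% of them. PPL exceeded 73.1% of tested genes in knockout and 89.6% in wild type.

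Among tested genes within 40 kb of TGM1, NOP9 had the largest log2 fold change (0.75), and the only gene that near to IVL, SMCP, was too low to be tested. UBN1, 2.48 kb from PPL, had a log2 fold change of 0.027 and SRP68, 8.88 kb from EVPL, of 0.019, and neither passed the test. CDK3, 0.839 kb from EVPL, fell by 0.59 on the log2 scale. RABGGTA, 2.31 kb from TGM1, fell by 0.35 and TINF2, 9.89 kb away, rose by 0.32. The median log2 fold change was -0.39 over 739 tested genes of chromosome 3, -0.28 on chromosome 10, -0.25 on chromosome 19 and 0.08 on chromosome 25. With these medians taken out, IVL, TGM1, PPL and EVPL stayed between -6.63 and -1.46 and each was still called.

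IVL sits in the epidermal differentiation complex, a cluster of envelope precursor genes flanked by S100 genes. Between S100A9 and S100A11 (chromosome 3, 17117985 to 18727497) the file lists 37 rows, of which 22 had 0 reads in all libraries, among them LELP1, SPRR4, LCE1B, KPRP and RPTN. Only 7 were tested, of which 4 fell and 3 rose, and the rows named here without a symbol were chosen after their values were seen. The row described as trichohyalin (ENSBTAG00000053103), a structural protein of hair follicle inner root sheath, had 93, 98 and 84 counts in knockout libraries, against 4658, 5428 and 5454 in wild-type libraries. It fell to 5.12 ± 0.38 CPM in knockout, against 284 ± 18.6 CPM in wild type (log2 fold change -5.79 ± 0.08, adjusted p = 2.87e-20). The row described as cornulin (ENSBTAG00000054069), a squamous protein of the same fused-S100 family, fell as well (-3.11 ± 0.39), with 12 reads in knockout against 108 in wild type. TCHHL1, a relative of trichohyalin, fell by 1.14 ± 0.23 on the log2 scale.

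CRCT1, a small cysteine-rich protein gene of the same cluster, rose. It read 63.6 ± 3.64 CPM in knockout cells and 10.95 ± 0.99 CPM in wild type (log2 fold change 2.54 ± 0.08, adjusted p = 5.86e-15). A locus 348 kb from IVL with a late cornified envelope domain in the file rose as well (1.39 ± 0.31), and an undescribed locus (ENSBTAG00000032446) rose by 0.36 ± 0.08. With 37.6% of all tested genes lower and 37.1% higher, calls in both directions among 7 loci are not particular to this cluster.

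**Figure D3:**
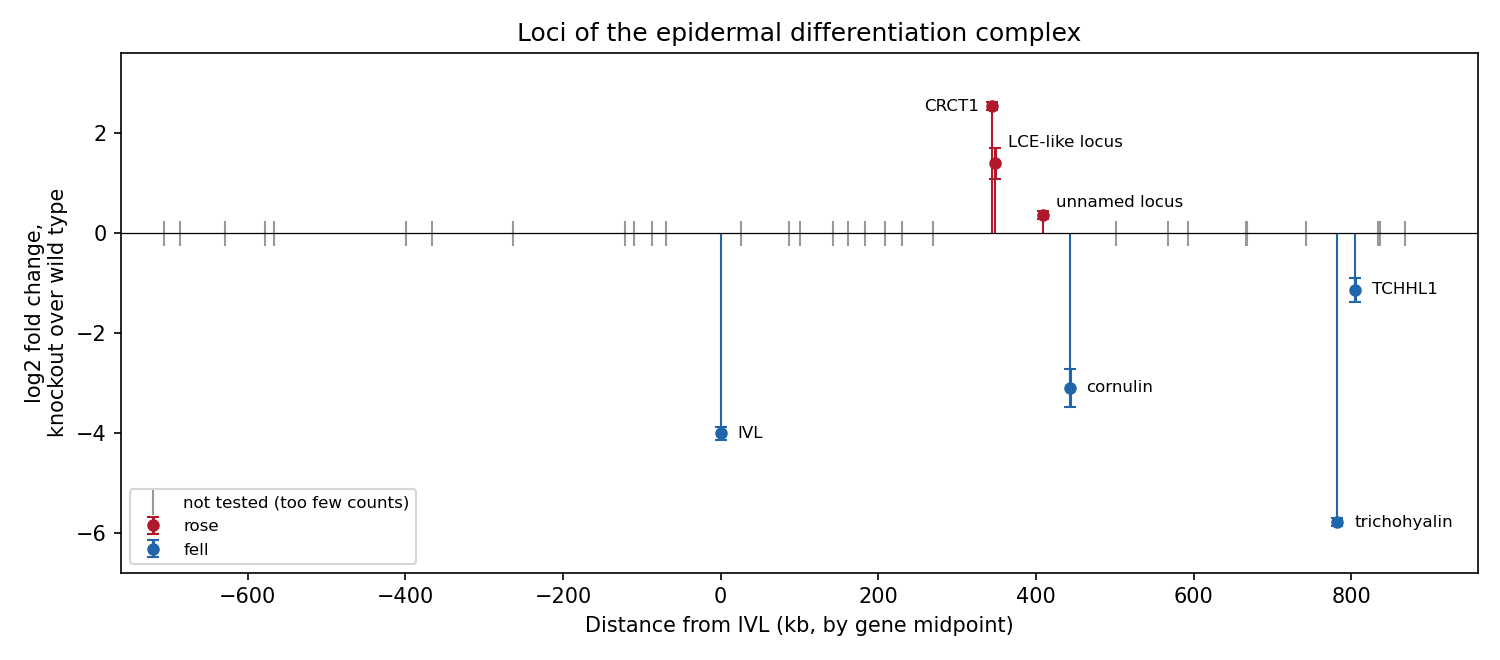
Knockout-over-wild-type log2 fold change (vertical axis, error bars SE) for the 7 tested loci between S100A9 and S100A11, by distance from IVL in kb; grey ticks mark loci with too few counts. IVL (-4.01), cornulin (-3.11), trichohyalin (-5.79) and TCHHL1 (-1.14) fell, while CRCT1 (2.54) and 2 loci without a symbol rose.

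Further genes were read from 8 lists by role, which together held 124 genes with a row besides the 6. The lists are wider than cornification: they hold the 14-3-3 family, which gives 6 of the 75 genes tested, and SMCP, a sperm mitochondrial gene of the same cluster that was not tested. Of 36 listed envelope precursors, 15 had a row under their symbol. Of the 75 tested, 43 fell and 21 rose, which is 57.3% and 28.0% against 37.6% and 37.1% of all genes tested. Their median log2 fold change was -0.45, against -0.01 over all genes. Of the 75, 23 fell and 11 rose at least 2-fold, both larger shares than the 11.5% and 10.8% of all genes tested.

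**Figure D4:**
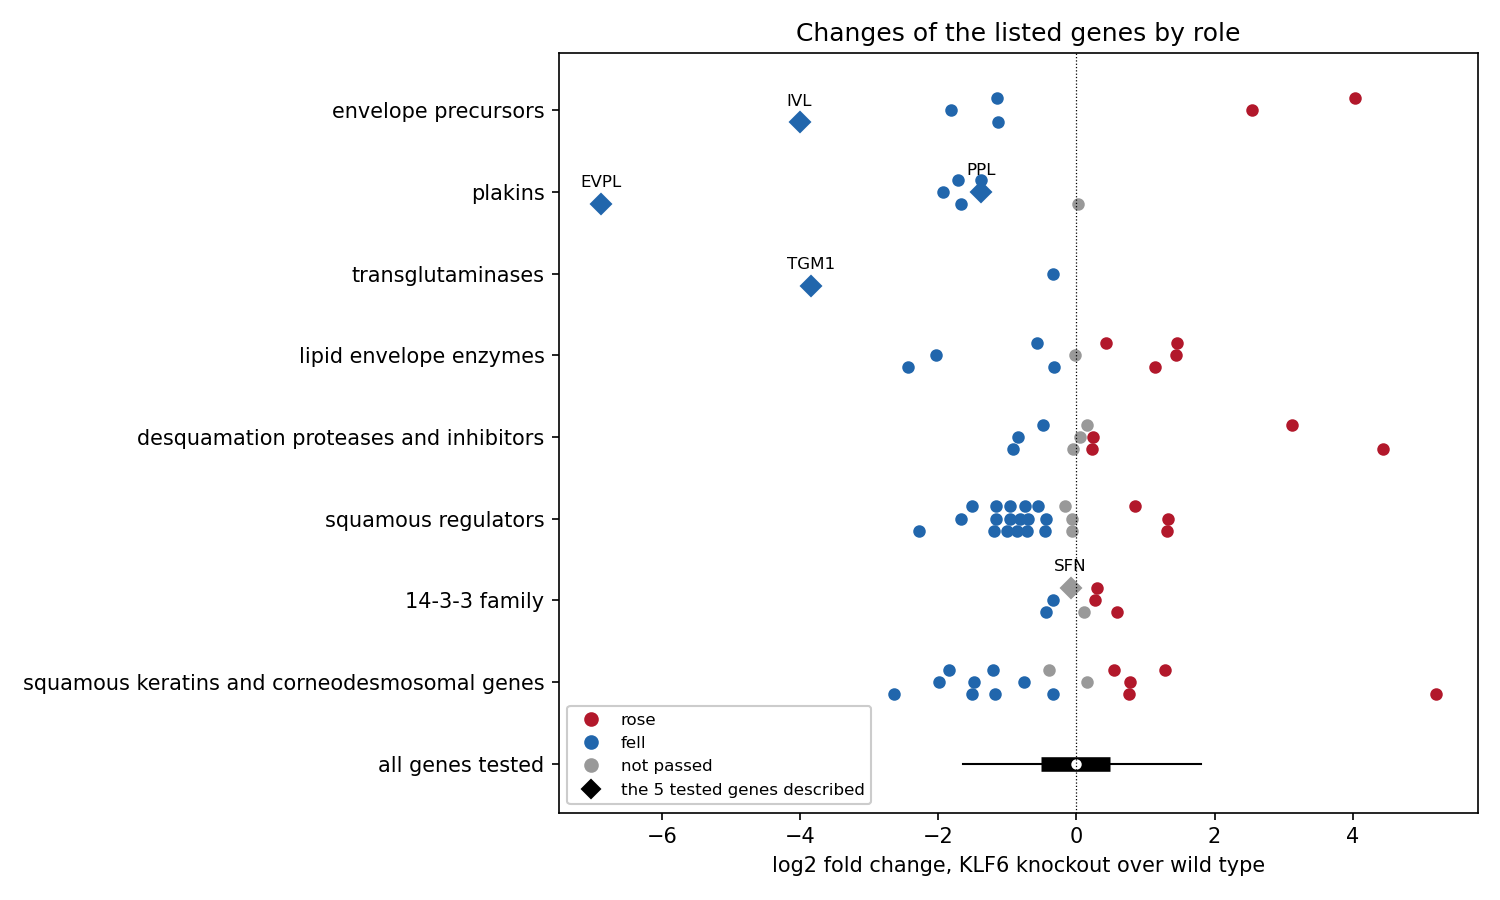
Knockout-over-wild-type log2 fold change (horizontal axis) for each tested gene of the 8 role lists, with the 5 tested genes described as labelled diamonds; red rose, blue fell, grey did not pass the test. The lowest row gives all tested genes, with the median (white dot), the middle 50% (thick bar) and the 5th to 95th percentiles (line); EVPL (-6.89), IVL (-4.01) and TGM1 (-3.84) lie left of that line's end at -1.64.

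Of 5 tested envelope precursors besides IVL, 3 fell and 2 rose, 60% and 40% against 37.6% and 37.1% of all genes. CNFN, which encodes cornifelin, fell by 1.81 ± 0.35 and SCEL, which encodes sciellin, by 1.15 ± 0.06 on the log2 scale. Against the medians of their chromosomes CNFN stood at -2.13 and SCEL at -0.72, and both were still called. CSTA, the cystatin A gene, rose (4.04 ± 0.31), with 4.01 ± 0.58 CPM in knockout cells and 0.24 ± 0.06 CPM in wild type, as did CRCT1. CDSN, the corneodesmosin gene, had 0 reads in knockout and 19 in wild type. With knockout set at a floor of 3 reads over the group, it was 6.23-fold lower. This leaves out the counting error of the 19 reads.

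All plakins but DST fell, which is 85.7% of 7, or 80% of 5 without EVPL and PPL, against 37.6% of all genes tested. Besides EVPL and PPL, the plakins that fell were PLEC (-1.93 ± 0.18), EPPK1 (-1.72 ± 0.23), the desmosomal DSP (-1.67 ± 0.09) and MACF1 (-1.38 ± 0.16). DST, which links hemidesmosomes to keratin, did not pass the test (0.03 ± 0.12). PLEC and EPPK1 lie on chromosome 14, and against its median they stood at -1.11 and -0.90. Plakin transcripts are long, and long genes were lower in knockout: the median log2 fold change was -0.27 over the 1339 longest tested genes (5070 to 25931 bases). Long genes also varied between wild-type libraries. The median deviation of that length class from the group mean was -0.05 in replicate 1 and 0.05 in replicate 3, on the log2 scale. All 7 plakins were highest in wild-type replicate 3 and lowest in replicate 1, as were 36.8% of that length class and 18.9% of all genes tested. With the median of the length class taken out PPL stood at -1.11 and EVPL at -6.62, and both were still called. Without wild-type replicate 3, PPL stood at -1.28 and EVPL at -6.79.

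Among transglutaminases TGM2, the ubiquitous tissue transglutaminase, had the most reads and fell little (-0.34 ± 0.04, 135 ± 2.10 CPM in knockout cells and 171 ± 2.10 CPM in wild type). The epidermal TGM3 and TGM5 were too low to be tested, with 25 and 17 reads in knockout and 5 and 9 in wild type.

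Genes of the lipid envelope, in which ultra-long ceramides are bound to the protein shell, had 4 that rose and 4 that fell of 9 tested, 44.4% each way and near the 37.1% and 37.6% of all genes. The ceramide synthase gene CERS3 (-2.44 ± 0.23) and the fatty acid hydroxylase gene FA2H (-2.03 ± 0.26) fell. UGCG, which makes glucosylceramide (1.46 ± 0.08), ALOXE3 (1.44 ± 0.33) and the very long chain elongase gene ELOVL4 (1.14 ± 0.12) rose. ABCA12, the lipid transporter of lamellar granules, had 0 reads in knockout and 3 in wild type.

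Proteases and inhibitors of desquamation were also near those shares, with 4 of 10 tested higher (40%) and 3 lower (30%). CTSC, which encodes the protease activator cathepsin C, rose to 171 ± 3.32 CPM in knockout, against 19.6 ± 1.54 CPM in wild type. SERPINB13 (4.44 ± 0.61) and PRSS8 (0.25 ± 0.05), the prostasin gene, rose too. SERPINB13 had 93 reads in knockout and 4 in wild type, all 4 in replicate 3, and passed the filter on low counts through its knockout libraries. KLK10 (-0.92), SPINT1 (-0.85), the inhibitor of matriptase, and BLMH (-0.48) fell. The kallikrein genes KLK5, KLK7 and KLK14 and the caspase gene CASP14 were at 0 reads in all libraries.

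Among regulators of squamous differentiation besides ZNF750, 17 fell and 3 rose among 23 tested, which is 73.9% and 13% against 37.6% and 37.1% of all genes tested. ELF3, an epithelial ETS factor (-2.28 ± 0.07), GRHL2 (-1.67 ± 0.09) and HOPX (-1.52 ± 0.05) fell most. GRHL2 is on chromosome 14 and stood at -0.85 against its median. TP63, the regulator of stratified epithelium, read 58.8 ± 2.99 CPM in knockout cells and 95.2 ± 3.88 CPM in wild type (-0.70 ± 0.06). KLF4 (-0.82) fell too. The grainyhead factor GRHL3, which drives TGM1 in mouse skin, rose (1.32 ± 0.17), with 5.64 ± 0.25 CPM in knockout cells and 2.25 ± 0.34 CPM in wild type. JAG1, a Notch ligand (1.31 ± 0.05), and BNC1 (0.84 ± 0.05) also rose.

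A list of keratins, KRT7 of simple epithelia among them, desmosomal cadherins and desmosomal plaque genes held 16 tested, of which 9 fell and 5 rose, or 56.2% and 31.2% against 37.6% and 37.1% of all genes. KRT79 (-2.64 ± 0.25), the desmosomal plaque gene PKP1 (-1.99 ± 0.10) and KRT7 (-1.84 ± 0.06) fell. DSG1, the desmoglein of upper epidermal layers, rose (5.20 ± 0.31), with 303 reads in knockout against 8 in wild type, as did DSC3 (1.28) and DSC2 (0.78). KRT1 and KRT2, keratins of the differentiated epidermis, had 0 reads in all libraries, and KRT10 read 3.14 ± 0.17 CPM in knockout cells and 2.84 ± 0.53 CPM in wild type. The genes described are thus grouped by their known roles, while several defining genes of the cornified layer had no reads in either genotype.

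Marker lists of cell types gave sums that rested on few genes. The epithelial markers EPCAM, KRT8 and KRT5 were read in every library. For 15 luminal markers the summed level ran from 3980 to 4135 CPM in knockout libraries and 11040 to 12340 CPM in wild-type libraries, mostly KRT8 (2450 CPM in knockout, 7564 CPM in wild type) and KRT18 (1060 CPM in knockout, 3584 CPM in wild type). Of 10 tested, 5 fell and 2, CD24 (1.80) and FOXA1 (0.42), rose, while EPCAM did not pass the test (0.015). For 13 basal markers it ran from 5320 to 5403 CPM in knockout libraries and 8981 to 9188 CPM in wild-type libraries, and 7 of 10 tested fell, among them KRT5 (-1.21) and KRT15 (-8.90). TAGLN (6.52), CDH3 (1.47) and KRT14 (0.76) rose, so markers of a lineage did not move as one.

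For 13 fibroblast markers the sum was 249 to 261 CPM in knockout libraries and 1058 to 1255 CPM in wild-type libraries, with TCF21 at 0. Most of it was DCN, at 229 CPM in knockout libraries against 1134 CPM in wild-type libraries. Of 8 tested, 4 fell and 1 rose, COL1A2, with 278 reads in knockout and 0 in wild type. For 8 endothelial markers the sum was 30.8 to 32.7 CPM in knockout libraries and 4.50 to 5.90 CPM in wild-type libraries, with KDR and CLDN5 at 0. PECAM1 alone made up the knockout sum, at 31.3 CPM in knockout libraries against 0.22 CPM in wild-type libraries, while the other 2 tested, VWF (-3.85) and TEK (-2.31), fell. For 10 leukocyte markers it was 19.3 to 21.5 CPM in knockout libraries and 13.2 to 15.6 CPM in wild-type libraries, with PTPRC, LYZ and MS4A1 at 0. AIF1 (1.28) and CSF1R (2.44) rose and CD74 (-4.92) fell among 4 tested. Over all tested genes 37.6% fell and 37.1% rose, and the part of these markers in the results was not tested.

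For each of the 5 tested genes, the 2 genes with the closest pattern were found by the Euclidean distance between log2 CPM values centred on their mean over the 6 libraries. TP73 (distance 0.346) and TMEM125 (0.367) were nearest to IVL, with log2 fold changes of -4.02 and -4.05. The nearest to TGM1 were MEST (0.322) and RBM47 (0.337). CARNS1 (0.0889) and TEP1 (0.112) were nearest to PPL. The nearest to EVPL were ITGB3 (0.434, log2 fold change -6.93) and RAB15 (0.845, log2 fold change -11.06). RAB15 had no reads in knockout, so the size of its fold is uncertain. TMEM9 (0.0432) and EIF4E (0.0482) were nearest to SFN, and neither passed the test. These distances are a description over 6 libraries in 2 groups.

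The authors' deposited table gives log2 fold changes of -4.00 for IVL, -3.83 for TGM1, -1.37 for PPL and -6.89 for EVPL. SFN and ZNF750 are not among the 9532 genes of the authors' deposited table, which reaches up to an adjusted p of 0.0499.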

How the data were processed

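The authors deposited raw counts per gene for 6 libraries, 3 KLF6 knockout and 3 wild type. Libraries were made from TRIzol-extracted, DNase I-treated total RNA (Ion Total RNA-Seq Kit v2), per the labels' protocols. The submitters' processing notes name HISAT2 (2.0.5) and featureCounts (1.5.0-p3). The sources used here do not name the build, annotation version or strand setting. The authors' deposited comparison table holds log2 fold changes, p-values, and a normalized signal equal to the counts divided by 1 factor per library. Of the 28200 rows, 20327 carried a symbol and 9473 were at 0 throughout. A set of 630 unnamed loci, only part of the rows without a symbol, held 0.807% to 0.884% of counts and stayed in the fit.

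Genotypes were compared over all genes with edgeR 4.0.16 (R 4.3.3, limma 3.58.1): TMM scaling, filterByExpr (minimum count 10, minimum total 15), robust dispersions, quasi-likelihood test, Benjamini-Hochberg adjustment. SEs were derived from the log2 fold change and its F statistic. The fit was tested on simulated data with known changes. Far fewer genes were changed there than were called here, and every gene had the same spread. The simulation thus does not test the scaling or the error rates of these data. The 6 genes and all gene lists were chosen with earlier results of these data known. Lists are described by counts and medians, with no set test. From each role list up to 3 genes per direction were named, by size of change among called genes without overlap of groups, plus genes at or near 0 that define a list, and the 2 genes nearest in pattern to each tested gene. TP63, KLF4, YWHAB, KRT10, DSP, MACF1, DST, TCHHL1 and the rows without a symbol, and the neighbouring genes, were added after their values were seen. The planned ratio of ZNF750 over TP63 was not computed, since ZNF750 was at 0 in wild type. No pairing was used, since the labels do not say that a number marks a shared culture. Deviations of same-numbered libraries of the genotypes had correlations of -0.13, 0.19 and -0.05, and those of differently numbered libraries ran from -0.24 to 0.28. Alternatives were DESeq2 1.42.0, limma-voom, other scalings and filters, a replicate block, each library left out, chromosome medians taken out, and rows of a symbol summed. Medians per length class were taken out as an alternative chosen after seeing the data. A few genes that the naming rule covers are not reported here. Sequences are not shown, since none were used here.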

Additional observations from a re-analysis of the deposited data

How the results depend on the processing

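IVL, TGM1, PPL and EVPL fell under every alternative run, with log2 fold changes of -4.20 to -3.62, -3.94 to -3.55, -1.46 to -1.11 and -7.13 to -6.62. SFN was called lower when scaled by library size alone (-0.13, adjusted p = 0.00857), when wild-type replicate 3 was left out (-0.099, adjusted p = 0.0181), with chromosome medians taken out (-0.11, adjusted p = 0.0306) and with length class medians taken out, chosen after seeing the data (-0.17, adjusted p = 0.00178). Its log2 fold change ran from -0.104 to -0.051 with a library left out. The cause of these differences was not tested. The count of the 6 genes that fell was 4 or 5. With a library left out, 43 to 44 of the other genes in the role lists fell and 21 to 24 rose, and under the other alternatives 41 to 46 and 21 to 29, among them one, added after seeing the data, that counts the trichohyalin and cornulin rows. KLF6 ranged from -1.29 to -0.94. For the within-library ratios, the difference of the mean log2 ratios, knockout minus wild type, was taken again with each library left out. For TGM1 over IVL it ran from -0.035 to 0.463, with the lowest value without knockout replicate 1. It ran from -5.84 to -5.27 for EVPL over PPL and from -0.23 to -0.15 for SFN over its family. Without division by length, IVL ranked 4 in both genotypes, TGM1 3 in knockout and EVPL 3 in wild type. YWHAZ turned to 0.384 and YWHAE to -0.092 with chromosome medians taken out. Of 640 checks on 40 further named genes, 638 kept direction and call. In the fit with the replicate block, SFN stood at -0.085 (adjusted p = 0.0998), and the block changed no call among the 6 genes. Over all genes, 4746 to 5019 fell and 4746 to 5115 rose with a library left out. Depth limits EVPL, IVL and TGM1 in knockout, at 9 to 46 reads a library, and ZNF750 throughout.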

Other observations

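Some genes of the role lists had too few reads for the test, and their reads were summed over the 3 libraries of a genotype. BARX2, a homeobox gene, had 25 reads in knockout against 0 in wild-type libraries. With wild type set at a floor of 3 reads over the group, it was 8.48-fold higher. SERPINB2, a serine protease inhibitor gene, had 12 reads in knockout against none in wild-type libraries, 4.07-fold higher on the same floor. Both folds leave out the counting error of the knockout reads. KRT16, a keratin of activated epidermis, had 1 read in knockout and 15 in wild type, a ratio of 0.0678 with a counting interval of 0.00161 to 0.441. These genes were named after their values were seen, and no test was made.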
